A study of Mus musculus with 8 samples.

Results

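Genes of the STAT and IRF transcription factor families were examined in primary cultures of activated mouse microglia. The 9 genes were Stat2, Stat3, Stat6, Irf1, Irf4, Irf5, Irf7, Irf8 and Irf9. They were chosen by name, as regulators of the interferon and cytokine responses of these cells, and all 9 were found by symbol among the 31406 genes of the count table. RNA was sequenced from primary striatal microglia of wild-type C57/BL6 pups aged 2 to 4 days, kept in culture for 15 days and activated for 48 h with bacterial lipopolysaccharide (LPS) and interferon-γ (IFN-γ). In the A2A antagonist group (4 libraries) the cells received 200 nM SCH58261, a blocker of the adenosine A2A receptor, at 24, 32 and 40 h. In the dual group (4 libraries) they received 200 nM SCH58261 together with 200 nM 2-Cl-IB-MECA, an agonist of the adenosine A3 receptor, at the same times. All 8 libraries were thus activated and carried SCH58261, so the comparison concerns only the added A3 agonist, and the effect of activation or of SCH58261 itself is not analysed here.

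Groups follow the sample titles. The headers of the deposited count columns name A2A alone for the antagonist group and A2A with A3 for the dual group, as the titles do. The treatment annotation names the ligands the other way round, so the direction of every difference rests on the titles and these headers. The study's methods list human IFN-γ as the reagent, and IFN-γ binds its receptor in a species-specific manner. The sources used here do not tie libraries to litters or animals, so p-values measure the spread between these libraries, which may be technical.

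STAT proteins are latent cytoplasmic factors that are phosphorylated by Janus kinases at cytokine receptors and then enter the nucleus. Type I interferon brings STAT2 and IRF9 together in the complex ISGF3, which binds the interferon-stimulated response element (ISRE), whereas IFN-γ acts through the gamma-activated site (GAS) and induces Irf1. IRF7 amplifies type I interferon production, IRF5 and IRF8 shape inflammatory and myeloid gene programmes, and STAT6 and IRF4 act in the response to interleukin-4. In microglia these factors are best known for the response to LPS, interferons and injury.

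The sequences just upstream of 4 members are shown. Those of Irf1, Irf8 and Stat2 hold the ISRE or GAS letters found among the 9 genes. That of Irf7, the member with the highest level per exonic length, is shown because neither was found. All come from RefSeq on mouse build GRCm38.p6, run 5′ to 3′ on the gene's own strand, and carry motif matches in capitals. The windows searched spanned 250 bases before to 50 after each annotated start. Irf1, Irf8 and Irf9 had 2 windows each and the other members 1. Sequences and distances for Irf1 and Irf8 refer to their first window, and their second windows held neither the ISRE nor the GAS letters. Starts are those of RefSeq and can differ from the gene coordinates given later. For Irf7, the sequence shown reaches into its gene span given later.
Irf1, 250 bases before the start at chr11:53769764-53770013, plus strand, with 1 GAS match: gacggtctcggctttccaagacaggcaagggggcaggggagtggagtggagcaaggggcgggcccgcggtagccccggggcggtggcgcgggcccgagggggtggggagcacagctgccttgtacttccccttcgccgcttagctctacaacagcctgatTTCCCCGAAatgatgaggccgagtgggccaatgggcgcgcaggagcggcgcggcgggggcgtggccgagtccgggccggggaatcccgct
Irf8, 66 bases at chr8:120736167-120736232, plus strand, with 2 GAS matches: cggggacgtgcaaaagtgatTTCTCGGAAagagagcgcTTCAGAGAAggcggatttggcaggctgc
Stat2, 49 bases at chr10:128270257-128270305, plus strand, with 1 match to the ISRE core on the reverse strand: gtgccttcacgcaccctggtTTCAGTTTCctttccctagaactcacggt
Irf7, 250 bases before the start at chr7:141266425-141266674, minus strand, with no match: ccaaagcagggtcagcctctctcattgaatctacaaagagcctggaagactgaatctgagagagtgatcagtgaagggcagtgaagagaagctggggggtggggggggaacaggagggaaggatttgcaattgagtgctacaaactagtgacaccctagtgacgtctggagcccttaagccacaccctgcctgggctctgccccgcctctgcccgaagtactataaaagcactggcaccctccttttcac

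The ISRE core was searched as GAAANNGAA and GAS as TTCNNNGAA, each on both strands. The GAS match of Irf1 began 90 bases before the start, those of Irf8 began 171 and 153 bases before it and did not overlap, and the ISRE match of Stat2 began 221 bases before it. Windows of Stat3, Stat6, Irf4, Irf5, Irf7 and Irf9 held neither string. Of all 32851 promoter windows in the table, 8.56% held the ISRE core, 8.3% held GAS and 15.8% held at least 1 of them. A match describes letters and not a bound site.

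Sequencing depth was similar in the 2 groups, with total counts of 38427491 to 45878639 in the A2A antagonist libraries and 32630602 to 45544451 in the dual libraries. Microglial markers were present. Levels are given in FPKM, fragments scaled to the annotated exonic length of the gene and to library size. Summed over 10 genes, these markers reached 599 to 673 FPKM in the antagonist group and 552 to 588 FPKM in the dual group. Of these 10 genes, 4 had higher and 6 lower estimates in the dual group. C1qa, a complement component, was called lower (log2 fold change -0.24, edgeR adjusted p = 0.0240), and with group means of 455 and 384 FPKM it made up most of the summed level and of its difference. Aif1 had a log2 fold change of -0.21 (edgeR adjusted p = 0.110) and Csf1r one of 0.11 (edgeR adjusted p = 0.171), and Tmem119 and P2ry12 were low. Astrocyte markers were also abundant, at 1019 to 1071 FPKM over 8 genes in the antagonist group and 1048 to 1105 FPKM in the dual group, and 6 fibroblast markers summed to 280 to 315 and 281 to 352 FPKM. Of the fibroblast markers 5 had higher estimates in the dual group, 3 of them at an unadjusted p under 0.05 (Col3a1, Dcn and Lum). Their median log2 fold change was 0.11, and edgeR called 0 of the 6. Of the astrocyte markers 6 had higher and 2 lower estimates, with 1 in each direction at an unadjusted p under 0.05. The 7 markers of the oligodendrocyte lineage summed to 75.2 to 78.0 and 69.6 to 77.3 FPKM, with 2 estimates higher and 5 lower. Summed markers of dendritic cells reached at most 1.93 FPKM and those of lymphocytes at most 0.223 FPKM. The part of cell composition in the results was not tested, and in such bulk RNA fewer cells of a type and less RNA per cell cannot be told apart. The levels of the members are those of the whole culture and cannot be assigned to microglia alone.

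The members differed widely in level. Per length, Irf7 was the highest (mean 197 FPKM, range 171 to 218), followed by Stat3 (74.4 FPKM, 71.2 to 78.2). Irf1 (31.6 FPKM), Stat2 (28.8 FPKM) and Irf9 (25.6 FPKM) came next, and in this trio the ranges of Irf1 and Stat2, and of Stat2 and Irf9, overlapped. Stat6 (14.7 FPKM), Irf5 (11.3 FPKM) and Irf8 (6.54 FPKM) followed with no overlap between neighbours. Irf4 lay near the detection limit at 0.0378 FPKM. Every neighbouring pair other than those 2 was separated in all 8 libraries. The length counts all annotated exonic bases of a gene, so this order depends on the annotation.

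**Figure D1:**
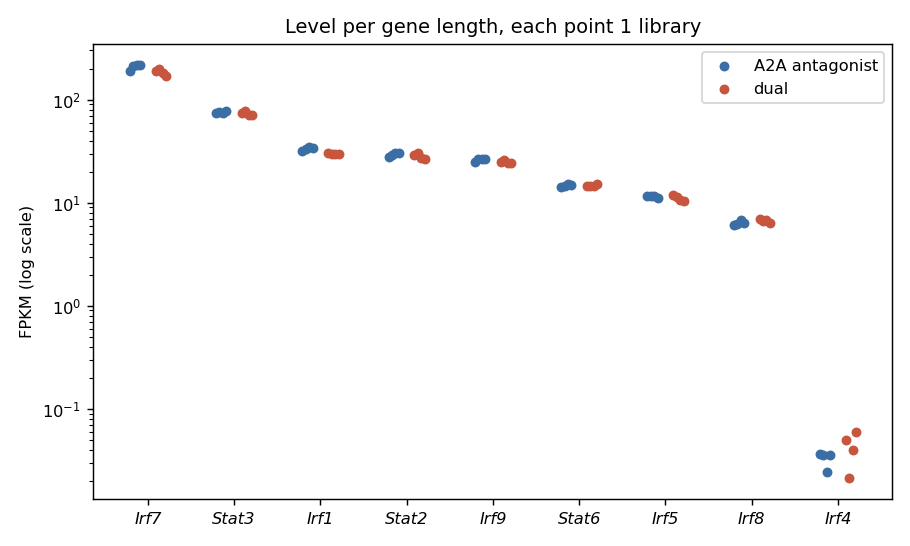
Levels per length of the 9 STAT and IRF genes, in FPKM on a log axis, with 1 point per library and the groups in different colours. Irf7 lies highest, between 171 and 218 FPKM, and Irf4 lies under 0.06 FPKM in every library.

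Adding the A3 agonist was accompanied by small differences in these genes, of which Irf1 and Irf7 were the largest. Under the edgeR quasi-likelihood test with Benjamini-Hochberg adjustment over all 18756 genes tested, 0 of the 8 members tested were called at an adjusted p under 0.05, against 0.208% of all genes tested (39 genes, 9 higher and 30 lower). At an unadjusted p under 0.05 there were 2 members, Irf1 and Irf7, both lower in the dual group, against 6.81% of all genes lower and 5.98% higher. DESeq2 called the same 2 genes, against 4.7% of the 8877 genes to which it gave an adjusted p. Of the 8, 6 were lower and 2 higher, with a median log2 fold change (dual minus antagonist) of -0.05 against 0.0038 over all genes tested. The median size of the log2 fold change, sign ignored, was 0.064 for the members and 0.072 for all genes, and 0.046 for the 9217 genes with a mean log2 CPM (counts per 1000000 counts) of 4 or more, of which 17.8% had a p under 0.05. Irf4 was filtered out for low counts.

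**Figure D2:**
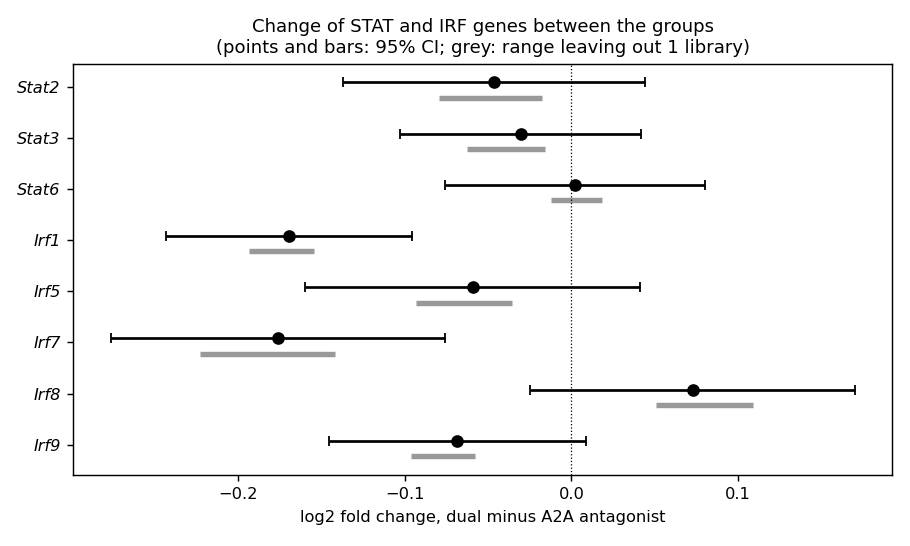
Log2 fold changes of the 8 STAT and IRF genes tested, dual minus A2A antagonist (4 libraries per group). Bars are 95% confidence intervals derived from the F statistic of edgeR. Grey bars are the range of estimates when 1 library was left out. The intervals of Irf1 (-0.24 to -0.10) and Irf7 (-0.28 to -0.08) lie below 0, and those of the other 6 genes include 0.

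Irf1, a factor induced by IFN-γ that drives antigen presentation and guanylate-binding protein genes, lies on chr11:53770014-53778374 (plus strand, ENSMUSG00000018899, GRCm38). It measured 127, 133, 138 and 137 CPM in A2A antagonist replicates 1 to 4, and 122, 119, 118 and 118 CPM in dual replicates 1 to 4. Every dual library lay below every antagonist library, and Irf1 was the only member whose groups did not overlap, against 4.06% of all genes tested with no overlap and a lower dual group and 3.36% with a higher one. The group means were 134 ± 4.97 and 119 ± 1.87 CPM (SD, n = 4 each). The log2 fold change was -0.17 (SE 0.035), a change of -11.1% (95% confidence interval -15.5% to -6.42%), with an edgeR adjusted p of 0.0557. The exact two-sided permutation test of the CPM values gave p = 0.0286, the smallest that 4 against 4 libraries allow. Adjusted p-values over 14 alternative analyses ran from 0.00044 to 0.179 and passed 0.05 in 4 of them: DESeq2 (0.00044), no low-count filter (0.0056), protein-coding genes only (0.0434) and edgeR without A2A antagonist replicate 1 (0.0177). Of its exonic bases, 3.4% (135 bases) overlap Gm17334 on the opposite strand, and the sources used here do not say whether counting used strand.

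Irf7, the amplifier of type I interferon production and itself an interferon-stimulated gene, lies on chr7:141262706-141266481 (minus strand, ENSMUSG00000025498). It measured 718, 807, 826 and 830.4 CPM in the antagonist replicates, and 726, 756, 681 and 653 CPM in the dual replicates. Antagonist replicate 1 fell among the dual libraries, so the groups overlapped, while the other 3 antagonist libraries lay above all 4 dual libraries. The means were 795 ± 52.3 and 704 ± 45.9 CPM (SD, n = 4 each). The log2 fold change was -0.18 (SE 0.048), a change of -11.5% (95% confidence interval -17.4% to -5.13%), with an edgeR adjusted p of 0.114 and an exact permutation p of 0.0857. Adjusted p-values over the alternatives ran from 0.00186 to 0.328, and passed 0.05 in 3 of 14: with no low-count filter (0.00186), with DESeq2 (0.0171) and in edgeR without A2A antagonist replicate 1 (0.0198).

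**Figure D3:**
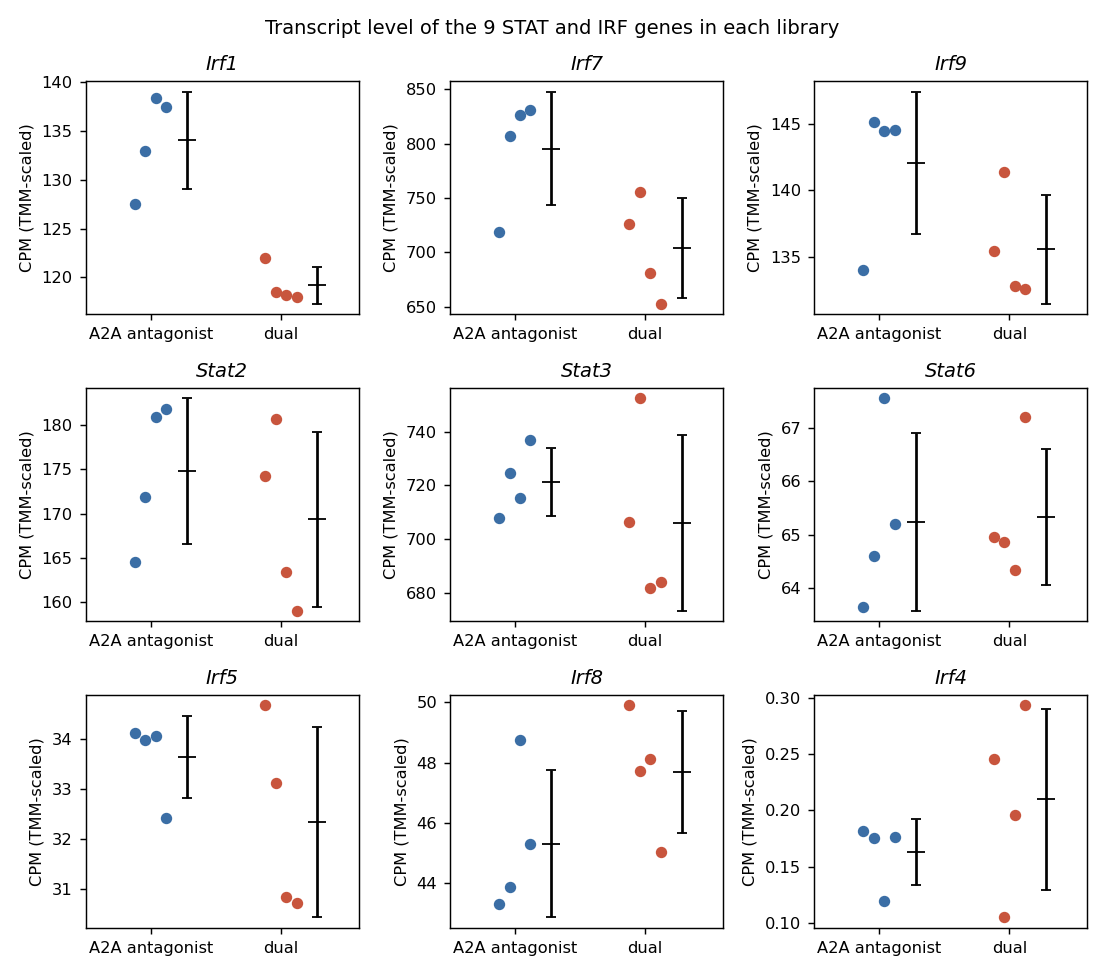
CPM of the 9 STAT and IRF genes in each library, 1 panel per gene, with group means and SD (n = 4 per group); the axes do not start at 0. The groups of Irf1 are separate (127 to 138 against 118 to 122 CPM), and those of the other genes overlap.

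Stat2 and Irf9 encode the ISGF3 subunits that are specific to interferon signalling. Stat2 (chr10:128270559-128292849, plus strand, ENSMUSG00000040033) measured 165, 172, 181 and 182 CPM in the antagonist replicates and 174, 181, 163 and 159 CPM in the dual replicates. The groups overlapped, and the log2 fold change was -0.046 (SE 0.043, 95% confidence interval -0.14 to 0.044, edgeR adjusted p = 0.706). Irf9 (chr14:55603571-55610030, plus strand, ENSMUSG00000002325), which supplies most of the DNA contact of ISGF3, measured 134, 145, 145 and 145 CPM against 135, 141, 133 and 133 CPM. Its 3 higher antagonist libraries lay above every dual library, and replicate 1 lay among them. The log2 fold change of Irf9 was -0.07 (SE 0.037, 95% confidence interval -0.15 to 0.0086, edgeR adjusted p = 0.455). In percent, the intervals ran from -9.06% to 3.11% for Stat2 and from -9.59% to 0.594% for Irf9.

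Stat3, which carries interleukin-6 and interleukin-10 family signals, and Stat6, which carries those of interleukin-4 and interleukin-13, showed still smaller differences. Stat3 (chr11:100885098-100939540, minus strand, ENSMUSG00000004040) measured 708, 725, 715 and 737 CPM in the antagonist replicates and 707, 752, 682 and 684 CPM in the dual replicates. Dual replicate 2 was the highest of all 8 libraries, the groups overlapped, and the log2 fold change was -0.030 (95% confidence interval -0.10 to 0.042, edgeR adjusted p = 0.772). Stat6 (chr10:127642986-127660957, plus strand, ENSMUSG00000002147) measured 63.6, 64.6, 67.5 and 65.2 CPM against 65.0, 64.9, 64.3 and 67.2 CPM. It was the least variable member, with a coefficient of variation of its FPKM values of 2.13% over the 8 libraries, and its log2 fold change of 0.0021 (95% confidence interval -0.08 to 0.08, edgeR adjusted p = 0.988) had the opposite sign in 5 of 14 alternatives.

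Irf5, a mediator of Toll-like receptor signalling to inflammatory cytokine genes, and Irf8, a lineage factor of microglia and macrophages that acts with PU.1, had estimates of opposite sign, neither of which passed the test. Irf5 (chr6:29526625-29541871, plus strand, ENSMUSG00000029771) measured 34.1, 34.0, 34.0 and 32.4 CPM in the antagonist replicates and 34.7, 33.1, 30.8 and 30.7 CPM in the dual replicates, with overlap, and its log2 fold change was -0.06 (95% confidence interval -0.16 to 0.042, edgeR adjusted p = 0.655). Of its exonic bases, 14.1% (411 bases) overlap Tnpo3 on the opposite strand, the largest such share among the members. Irf8 (chr8:120736358-120756694, plus strand, ENSMUSG00000041515) measured 43.3, 43.9, 48.8 and 45.3 CPM against 49.9, 47.7, 48.1 and 45.0 CPM. Its groups overlapped, and the log2 fold change was 0.07 (95% confidence interval -0.02 to 0.17, edgeR adjusted p = 0.546). Irf4 (chr13:30749226-30766976, plus strand, ENSMUSG00000021356), a factor of lymphocytes and alternatively activated macrophages, had 7, 8, 5 and 8 counts in the antagonist libraries and 8, 4, 9 and 13 in the dual libraries. These counts overlapped and were too few for a difference to be seen at this depth.

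The members varied together across libraries of the same group to differing degrees. With log2 CPM centred within each group (8 libraries, 28 pairs of genes), Stat2 and Irf7 had a Pearson r of 0.957 (exact permutation within groups, p = 0.00174, adjusted 0.0486) and a Spearman rho of 0.976 (exact permutation p = 0.00174, adjusted 0.0486). It was the only pair with an adjusted p under 0.05, and r was 0.953 without the 2 libraries farthest from the median. Its exact permutation p is the smallest that the 576 arrangements within groups allow. Among 11051 genes searched, the closest were not members: Polrmt for Irf7 (r = 0.981) and H2-T22 for Stat2 (0.994). An r this high was thus not limited to pairs of members, and how often other pairs of genes reach it was not tested. Irf7 and Irf9 had r = 0.938 (adjusted p = 0.109, exact permutation; rho 0.857, adjusted p = 0.0918) and Stat2 and Irf9 had r = 0.842 (adjusted p = 0.109, exact permutation; rho 0.833, adjusted p = 0.0918). Without the 2 farthest libraries, r was 0.868 and 0.709. In A2A antagonist replicate 1, 7 of the 8 tested members were at the lowest value of their group, all but Irf5. The share of all genes lowest in this library was not counted, so this cannot be read as particular to the members. Leaving the library out also raised the genes called over the whole table from 39 to 172. Stat6 had a negative r with Irf5 (-0.214) and with Stat3 (-0.146), the only 2 negative pairs.

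**Figure D4:**
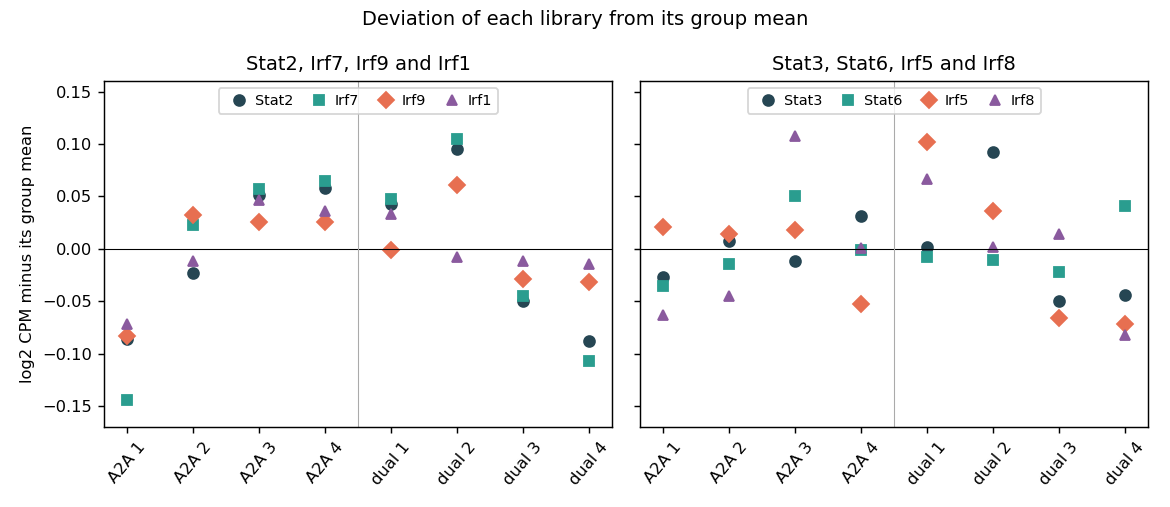
Deviation of log2 CPM from the group mean in each of the 8 libraries, for Stat2, Irf7, Irf9 and Irf1 (left) and for Stat3, Stat6, Irf5 and Irf8 (right). Within the A2A antagonist group the 4 left-hand genes are all lowest in replicate 1, as are Stat3, Stat6 and Irf8 on the right. The share of all genes lowest in that library was not counted.

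As a description over the same 8 libraries and 11051 genes with a mean log2 CPM of 3 or more, the genes with the most similar centred pattern to Stat2 were H2-T22 (r = 0.994), Oas3 (0.991) and Pfdn2 (0.991). H2-T22 is a non-classical MHC class I gene and Oas3 an interferon-induced oligoadenylate synthetase. For Irf7 they were Polrmt (0.981), Ap2a1 and Zfp142, for Irf9 Ddrgk1 (0.983), Mrpl51 and P2ry6, and for Irf1 Cisd1 (0.977), Tmem206 and Mettl21a. For Stat3 they included Prdm16 (0.979) and Rnf135, for Stat6 Ctss (0.987), Cryl1 and Acsl5, for Irf5 Chmp1a (0.974), Xpo6 and Smad7, and for Irf8 Slfn1 (0.977), Sil1 and Araf. These values are the highest of 11051 searched per member and are given without a test.

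Among other members of both families, Irf3, the constitutive factor that starts interferon-β transcription, was at 40.7 ± 0.854 and 43.2 ± 0.611 CPM, with a log2 fold change of 0.08 (edgeR adjusted p = 0.371) and no overlap. Stat5a, Stat5b and Irf2 had log2 fold changes between -0.05 and 0.0053, and Stat4 had too few counts to be tested. The groups of Stat5b did not overlap either, with the dual group lower (69.9 ± 0.977 and 68.0 ± 0.735 CPM). Of all genes tested, 4.06% had no overlap with a lower dual group and 3.36% with a higher one.

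The genes around the factors were taken from lists of ligands, receptors, kinases, sensors, inhibitors, partners and targets. Of 149 genes listed, 143 were in the count table and 137 were tested, of which 4 were called, all lower, while 47 were lower and 9 higher at an unadjusted p under 0.05. The median log2 fold change was -0.06. Over all genes tested, 0.208% were called, and 6.81% were lower and 5.98% higher at an unadjusted p under 0.05, which are the shares to set beside each list that follows. Among the 9217 genes with a mean log2 CPM of 4 or more, 17.8% had such a p in either direction.

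Cytokine and interferon ligands came first, and not all of them signal mainly through the members. Of 10 tested, 5 were lower and 1 higher at an unadjusted p under 0.05, with a median of -0.14 and 0 passing the adjusted test. Il12b, a subunit of interleukin-12, measured 4.23 ± 0.554 and 2.72 ± 0.665 CPM (log2 fold change -0.62, edgeR adjusted p = 0.0907), and Il10, whose receptor signals through STAT3, had -0.45 (edgeR adjusted p = 0.182). Ifnb1 was at 0 to 3 counts in every library and was not tested. Of 15 receptor genes, 2 were higher and 0 lower at an unadjusted p under 0.05: Il6st, the shared interleukin-6 receptor chain, with a log2 fold change of 0.08 (edgeR adjusted p = 0.270) and Il6ra with 0.11 (edgeR adjusted p = 0.323). The interferon receptor genes Ifnar1 (0.03), Ifnar2 (-0.02), Ifngr1 (-0.05) and Ifngr2 (-0.0084) and the interleukin-4 receptor gene Il4ra (-0.0070) had log2 fold changes near 0.

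Of the 10 kinases, Irak1, which relays Toll-like receptor signals, was at an unadjusted p under 0.05 (log2 fold change -0.08, edgeR adjusted p = 0.342). Ikbkb was next (0.046, edgeR adjusted p = 0.698), and the Janus kinases Jak1 (0.02), Jak2 (-0.02) and Tyk2 (-0.04), and Tbk1 (0.0013), which phosphorylates IRF3 and IRF7, were close to 0. Of the 17 sensors and adaptors, 4 were lower and 1 higher at an unadjusted p under 0.05. Myd88, the adaptor of most Toll-like receptors, had a log2 fold change of -0.13 (edgeR adjusted p = 0.186), Ddx58, a sensor of viral RNA, -0.09 (edgeR adjusted p = 0.226) and Tlr4, the LPS receptor, 0.14 (edgeR adjusted p = 0.268). Of the 14 inhibitors, 3 were lower at an unadjusted p under 0.05: Usp18, which blocks the type I interferon receptor, had -0.18 (162 ± 5.64 and 143 ± 5.38 CPM, edgeR adjusted p = 0.0532) and Socs3 -0.14 (edgeR adjusted p = 0.174), with Ptpn6 at -0.08, and Socs1 was at -0.02. Of 11 partners, Ifi35 had -0.18 (edgeR adjusted p = 0.0925), Ep300, an acetyltransferase coactivator, 0.12 (edgeR adjusted p = 0.130), Spi1, encoding PU.1, -0.09 (edgeR adjusted p = 0.407) and Batf3 -0.09.

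Estimates for the ISGF3 targets all had the same sign. All 15 tested were lower, with a median of -0.16, and all 15 had an unadjusted p under 0.05, against 6.81% of all genes lower at that level. Among genes with a mean log2 CPM of 4 or more, 17.8% had such a p in either direction. This list and the next were chosen with earlier results of these data known, so their counts describe the libraries and are not independent support. Ifit3 and Isg15, both antiviral effectors, passed the adjusted test: Ifit3 measured 382 ± 16.5 and 325 ± 17.2 CPM (log2 fold change -0.23, edgeR adjusted p = 0.0240) and Isg15 370 ± 19.7 and 311 ± 19.5 CPM (-0.25, edgeR adjusted p = 0.0255). Of the 15 targets of IFN-γ and IRF1, 11 were lower at an unadjusted p under 0.05 with a median of -0.12, and Psmb8, an immunoproteasome subunit, was called (167 ± 7.16 and 146 ± 6.22 CPM, -0.20, edgeR adjusted p = 0.0393). Igtp, an interferon-inducible GTPase, followed at -0.16 (edgeR adjusted p = 0.0572). The medians of the 2 lists were -0.16 and -0.12 with relative log expression factors, -0.15 and -0.11 with library size alone, and -0.16 and -0.12 with DESeq2. The TMM factors ran only from 0.992 to 1.009, so a change of scaling could not reverse medians of this size. The fibroblast markers with higher estimates and the lower C1qa stand beside these lower targets, and their part in the result was not tested. Neither list is independent of Irf1 and Irf7, which were measured in the same libraries.

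**Figure D5:**
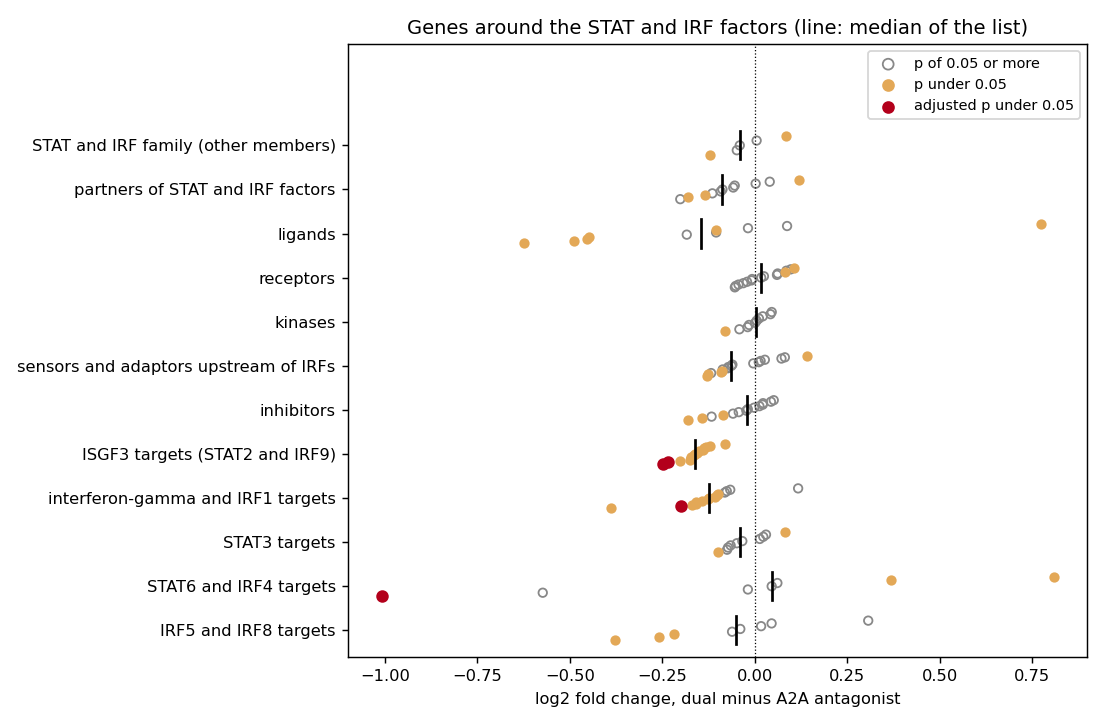
Log2 fold changes, dual minus A2A antagonist, of the 137 tested genes in each list around the STAT and IRF factors, with the median of the list as a bar. All 15 ISGF3 targets lie below 0 (median -0.16), and receptors (median 0.02) and kinases (median 0.0033) lie around it.

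The targets of the other members had estimates of both signs. Of 10 STAT3 targets, Mcl1 (0.08, edgeR adjusted p = 0.312) and Lcn2 (-0.10, edgeR adjusted p = 0.319) were at an unadjusted p under 0.05, in opposite directions, and the median was -0.04. Of 7 targets of STAT6 and IRF4, Ccl22 was called (2.33 ± 0.382 and 1.16 ± 0.136 CPM, log2 fold change -1.01, edgeR adjusted p = 0.0240), while Arg1, the arginase of alternative activation, was at 43.0 ± 8.22 and 75.7 ± 31.1 CPM (0.81, edgeR adjusted p = 0.0651). Dual replicate 1 held 122 CPM of Arg1 against 54.8, 66.4 and 59.8 CPM in the other dual libraries, and without it the log2 fold change was 0.49 (edgeR adjusted p = 0.0537). Of 8 targets of IRF5 and IRF8, 3 were lower at an unadjusted p under 0.05, among them Cd40 (-0.38, edgeR adjusted p = 0.0541) and Tnf (-0.22, edgeR adjusted p = 0.0912), with a median of -0.05. Ifit3, Isg15, Psmb8 and Ccl22 each lost the call without A2A antagonist replicate 3, without A2A antagonist replicate 4 and without dual replicate 3, where the edgeR adjusted p-values ran from 0.0791 to 0.123. Psmb8 also lost it with library size alone (edgeR adjusted p = 0.0515) and without any 1 of A2A antagonist replicate 2 and dual replicates 1, 2 and 4 (0.0537 to 0.142), and Ifit3 and Isg15 without A2A antagonist replicate 2 (0.0608 and 0.0648).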

How the data were processed

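Read counts per gene for 8 libraries were taken as the authors deposited them. Per the study's methods, reads were aligned to mouse build mm10 with Hisat2 and counted with featureCounts 1.5.0-p3; whether counting used strand is not given in the sources used here. The FPKM values, also deposited by the authors, were used for levels between genes, summed markers and coefficients of variation, not for tests. Deposited columns of 9 per-sample values with no sample among those analysed, and the authors' log2 fold changes and p-values from DESeq2, were not used. Genes were filtered with edgeR's filterByExpr (minimum count 10) and tested with TMM factors and the quasi-likelihood test (edgeR 4.0.16, limma 3.58.1, R 4.3.3), dual against A2A antagonist, without a replicate term, with Benjamini-Hochberg adjustment at 0.05. The test was checked on simulated data with changes larger than those of the members, so the check does not cover differences of their size. Standard errors were derived from that test, as the size of the log2 fold change over the square root of its F statistic. Confidence intervals were built from them with a t quantile at the total degrees of freedom. CPM used TMM library sizes. Single members were also tested by exact permutation of 4 against 4 libraries (70 arrangements). Alternatives were relative log expression factors, library size alone, no filter, DESeq2 1.42.0, a replicate block, protein-coding genes only and each library left out. The 9 members and all gene lists were chosen with earlier results of these data known. Named were the members, genes of the lists past the adjusted threshold, the 2 genes with the smallest p-value in each list, direct partners of members, and for each member the 3 genes most like it; some of these genes are not reported here. Ptpn6 (the third inhibitor), Stat4, Stat5a, Stat5b, Irf2, C1qa, Aif1, Csf1r, Tmem119, P2ry12, Col3a1, Dcn and Lum were named after their values were seen.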

Additional observations from a re-analysis of the deposited data

Results flagged for a closer look

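In 4 of 18 groups of 4 libraries (9 genes, 2 groups each) 1 library stood apart from the others of its group, by a gap to its nearest neighbour above Dixon's 95% critical share of the group's range. Chance gives this in about 1 group of 20. Irf9 was 134 CPM in A2A antagonist replicate 1, against 145 CPM in the next library (gap 0.939 of the range). Irf5 was 32.4 CPM in A2A antagonist replicate 4, against 34.0 CPM in the next (0.914). Irf1 was 122 CPM in dual replicate 1, against 119 CPM in the next (0.854), while remaining below every antagonist library. Irf4 was 0.120 CPM in A2A antagonist replicate 3, against 0.176 CPM in the next (0.91), which is 5 against 8 counts.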

How the results depend on the processing

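The 39 genes called over the whole table became 366 with no low-count filter, 417 with DESeq2, 63 with protein-coding genes only, 17 with the replicate block and 0 to 172 when 1 library was left out (172 without A2A antagonist replicate 1, 5 without replicate 2, 6 without replicate 3, 0 without replicate 4 and 0 without dual replicate 3, the last 2 with 1802 and 2092 genes at an unadjusted p under 0.05). The count of called members, 0 in edgeR, was 2 with no filter, 2 with DESeq2, 1 with protein-coding genes only and 0 to 2 when 1 library was left out. The 4 called list genes became 25, 23, 7 and, with the block, 1 (Arg1, higher), and 0 to 13 over left-out libraries. The cause was not tested. With the block, the adjusted p was 0.131 for Irf1 and 0.194 for Irf7, and Ifit3 (0.0681), Isg15 (0.0778), Psmb8 (0.0778) and Ccl22 (0.0567) lost their calls. Libraries of the same number did not deviate together (correlations -0.146, -0.0482, -0.0739 and -0.2), and no library correlated best with its own number, so the numbers were not taken as pairs. Log2 fold changes near 0 changed sign as follows. With library size alone Ifngr2 was 0.0018 and Il4ra 0.0033. With no filter Stat6 was -0.0034, Tbk1 -0.0042 and Stat5a -0.00054, and with DESeq2 Stat6 was -0.00031 and Tbk1 -0.0011. Over left-out libraries the sign also changed, with ranges of -0.012 to 0.018 for Stat6, -0.025 to 0.043 for Stat5a, -0.019 to 0.012 for Tbk1, -0.032 to 0.021 for Il4ra, -0.067 to 0.029 for Socs1, -0.055 to 0.0030 for Ifnar2, -0.037 to 0.011 for Jak2, -0.024 to 0.012 for Ifngr2 and -0.085 to 0.012 for Tyk2. Of the other values of named genes, 590 kept direction and side of the threshold, 33 passed it and 24 lost it. With about 5.28% variation between libraries beyond counting noise (common estimate of edgeR) and 4 libraries per group, differences of a few percent could not be resolved.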
